A study of Mus musculus with 35 samples.

Results

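The 7 genes described here encode subunits of the GABA-A receptor: the α subunits Gabra2, Gabra3, Gabra4 and Gabra5, the β subunits Gabrb1 and Gabrb2, and the γ subunit Gabrg1. They were taken by name from the 52636 genes of the count files, and all 7 passed the minimum of 10 counts in every comparison. Levels were followed in 35 RNA-seq libraries from the anterior and posterior amygdala of 19 female mice, of which 16 gave a library of each portion. The mice were C57BL/6J, an inbred strain, or B6D2F1N, a hybrid strain, and lived in standard housing or in enriched housing with access to a playground for 1 h per day from post-natal day 77 onwards. All mice, in every group, learned a touchscreen task from post-natal day 70 on a restricted diet and completed a cognitive judgement bias test before the brain was taken. Training lasted 37 to 90 days, depending on how fast a mouse learned, so that age at sampling was not the same for all mice. The study reports longer training and a higher age for the inbred than for the hybrid strain, neither of them statistically significant. The part of age and training in the strain differences below was not tested. Some mice carry an optimist or pessimist label from the bias test, and these labels were spread unevenly over strains as well as housings. In standard housing more B6D2F1N than C57BL/6J mice carried a label. The part of the labels in the strain differences was not tested. Cells were cut from stained sections of the basolateral amygdala with a laser capture microscope, so that each library holds a mixture of cell types. In such bulk samples, fewer cells of a type and less RNA per cell cannot be told apart.

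The anterior libraries came from 4 C57BL/6J mice in standard and 2 in enriched housing, and from 5 B6D2F1N mice in each housing. The posterior libraries came from 4 C57BL/6J mice in each housing, and from 5 B6D2F1N mice in standard and 6 in enriched housing. Total counts ran from 16938534 to 27352623 per library. The bregma levels that the study's methods give for the portions place the section called posterior in front of the other, and the labels' names are kept here. Summed markers of excitatory neurons, inhibitory neurons, astrocytes, oligodendrocytes, microglia and endothelial cells were above 0 in every library. Xist, the RNA of the inactive X chromosome, had 0 counts in both libraries of B6D2F1N standard mouse 1 and 1191 or more in the other 33 libraries, while 4 genes of the Y chromosome (Ddx3y, Kdm5d, Uty and Eif2s3y) each had at most 1 count in any library. The Gabra2 strain differences, the Gabra3 portion difference and the count of members called between housings that use this mouse are also given without it.

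GABA-A receptors are chloride channels built of 5 subunits, usually α, β and γ, that carry most fast inhibition in the brain. GABA binds between α and β, and benzodiazepines bind between α and γ. The α subunit decides much of the pharmacology of a receptor, and receptors with the α2 subunit, which is made from Gabra2, are known for their part in the calming action of benzodiazepines in the amygdala. C57BL/6J is known to carry an intronic variant of Gabra2. Genotypes were not read here, and the part of the variant in the values below was not tested.

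The stretch around a single codon shows how the 4 α subunits differ for benzodiazepines. It is given from GENCODE M21 transcripts (GRCm38), 5′ to 3′ on the coding strand, with the codon in capitals. CAC encodes the histidine that a classical benzodiazepine site needs, and AGG encodes an arginine in its place.
Gabra2: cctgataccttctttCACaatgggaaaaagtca
Gabra3: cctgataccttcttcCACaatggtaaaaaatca
Gabra5: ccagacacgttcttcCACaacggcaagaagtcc
Gabra4: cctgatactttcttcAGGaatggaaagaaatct
The Gabra2 stretch lies in coding exon 5 of 10, at chr5:71014490-71014522 on the minus strand. The stretches of Gabra3 and Gabra5 also lie in exon 5 of 10, and that of Gabra4 in exon 4 of 9. Gabra2, Gabra3 and Gabra5 thus share the histidine codon, and Gabra4 does not.

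Gabrg1, Gabra2, Gabra4 and Gabrb1 stand together on chromosome 5 (GRCm38). Gabrg1 spans 70751047 to 70842617, Gabra2 spans 70957597 to 71095849 and Gabra4 spans 71569749 to 71658308, all on the minus strand. Gabrb1 spans 71658113 to 72149037 on the plus strand and overlaps the start of Gabra4 by 196 bases. The start of Gabrg1 lies 253 kb from that of Gabra2, and those of Gabra4 and Gabrb1 each lie 562 kb away. Gabra3 is on the X chromosome, Gabra5 on chromosome 7 and Gabrb2 on chromosome 11. Reads of Gabra4 and Gabrb1 in their overlap, and of Gabra5 and its antisense gene Gm9962, could not be assigned with certainty, because the strand setting of the counting is not given in the sources used here.

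The members were ranked by their level per kb of exon within each group. In the standard anterior group of C57BL/6J mice, Gabra3 had 238 ± 47.1 CPM per kb (SD, n = 4), above Gabra4 at 122 ± 20.9 and Gabra2 at 48.4 ± 11.8. CPM are gene counts scaled to the size of the library with TMM factors. The mean of Gabra2 lay within the larger SD of Gabra5, which had 41.8 ± 19.4 CPM per kb, and the lowest member was Gabrg1 at 17.3 ± 0.852. In B6D2F1N mice of the same housing and portion, Gabra2 took the second rank at 157 ± 46.2 CPM per kb (n = 5), below Gabra3 at 215 ± 80.2 by less than the larger SD. In the enriched posterior amygdala of B6D2F1N mice, Gabra2 ranked first at 170 ± 58.9 CPM per kb (n = 6), above Gabra3 at 92.3 ± 38.8 by more than the larger SD. The same group of C57BL/6J mice had Gabra2 in the fourth rank, at 36 ± 12.7 CPM per kb (n = 4). The subunit genes Gabra6, Gabrp and Gabrr3 had a median of 0 over the 35 libraries.

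**Figure D1:**
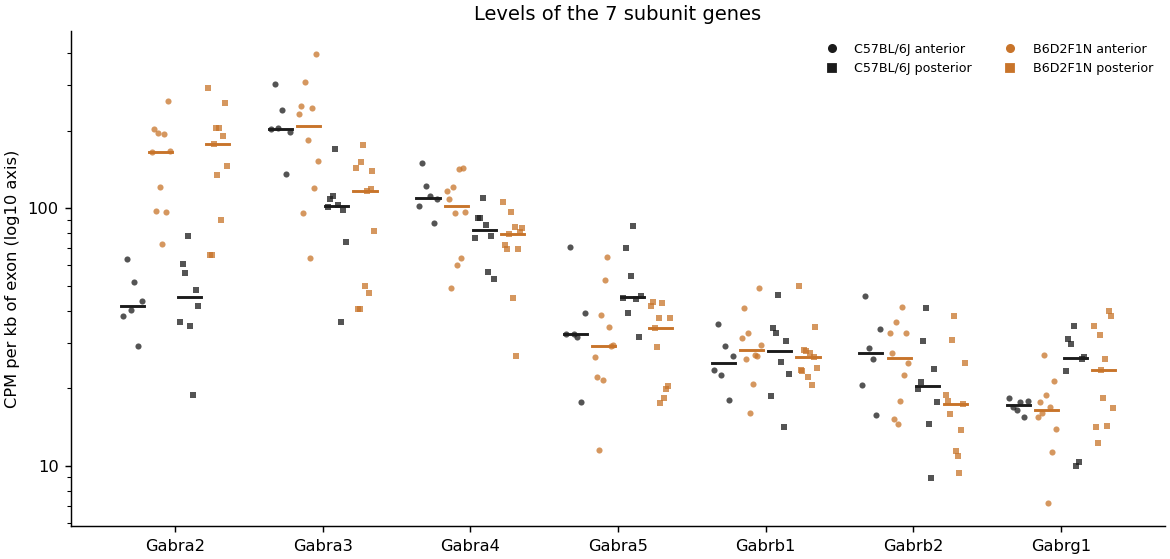
CPM per kb of exon (log10 axis) of the 7 subunit genes in the 35 libraries, by strain (colour) and portion (circle anterior, square posterior), with a bar at each median. The median of Gabra2 is higher in B6D2F1N libraries of both portions, and that of Gabra3 is lower in posterior than in anterior libraries of both strains.

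Gabra2 was higher in B6D2F1N than in C57BL/6J mice. In the standard anterior amygdala, the 4 C57BL/6J mice had 291, 486, 307 and 394 CPM. The 5 B6D2F1N mice had 1265, 1554, 748, 1497 and 925 CPM, and the groups did not overlap. The log2 fold change (B6D2F1N over C57BL/6J) was 1.70 ± 0.25 (SE; adjusted p = 0.00286, edgeR's quasi-likelihood test). Gabra2 was the 1 of 7 members past the threshold of an adjusted p of at most 0.05, where 0.37% of all genes tested passed. Without B6D2F1N standard mouse 1 its log2 fold change was 1.69 (adjusted p = 0.00723, edgeR).

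In the enriched posterior amygdala, the 4 C57BL/6J mice had 266, 144, 369 and 320 CPM of Gabra2. The lowest of the 6 B6D2F1N mice had 689 CPM, the median was 1284 and the highest had 1959, again without overlap. This gave a log2 fold change of 2.27 ± 0.33 (adjusted p = 0.00248, edgeR), and Gabra2 was again the 1 member of 7 to pass, against 0.394% of all genes. In these libraries the summed CPM of the 6 oligodendrocyte markers ran from 17825 to 27905 for C57BL/6J and from 6712 to 16006 for B6D2F1N, and that of the 6 choroid plexus markers from 117 to 1366 and from 1112 to 14220. The part of these cells in the Gabra2 difference was not tested. With the 2 C57BL/6J mice and the B6D2F1N mouse that lack an anterior library left out, the log2 fold change was 1.92 and no longer passed (adjusted p = 0.156).

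In the enriched anterior amygdala, the 2 C57BL/6J mice had 222 and 332 CPM of Gabra2. The 5 B6D2F1N mice had 555, 1482, 737, 1989 and 1272 CPM, all above both C57BL/6J mice. Its log2 fold change was 2.15 ± 0.50, which did not pass over all genes (adjusted p = 0.477, unadjusted p = 0.00102, edgeR). None of the 7 members passed in this comparison by edgeR, where 0.0639% of all genes did, and 1 had an unadjusted p below 0.05. DESeq2 called 1 member, Gabra2, with an adjusted p of 0.000458. The shares of all genes given throughout are those of edgeR, and none is given for DESeq2.

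In the standard posterior amygdala, the 4 C57BL/6J mice had 275, 465, 428 and 597 CPM of Gabra2. The 5 B6D2F1N mice had 2248, 502, 505, 1361 and 1566 CPM. Mice 2 and 3 of B6D2F1N fell inside the C57BL/6J range, and the other 3 were above it. Gabra2 had a log2 fold change of 1.49 ± 0.42 (adjusted p = 0.265, edgeR), so that 0 of 7 members passed, with 2 at an unadjusted p below 0.05 and 0.373% of all genes past the threshold. DESeq2 called 1 member, Gabra2 (adjusted p = 0.0227), with no share of all genes by DESeq2 to set beside it. Without B6D2F1N standard mouse 1, the highest of its group, the log2 fold change was 1.16 (adjusted p = 0.276, edgeR). In the same libraries of mice 2 and 3, the summed CPM of 6 oligodendrocyte markers was 23128 and 19142, against 2323 to 8354 in the other 3 mice of the group. The part of these cells in the Gabra2 values was not tested.

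**Figure D2:**
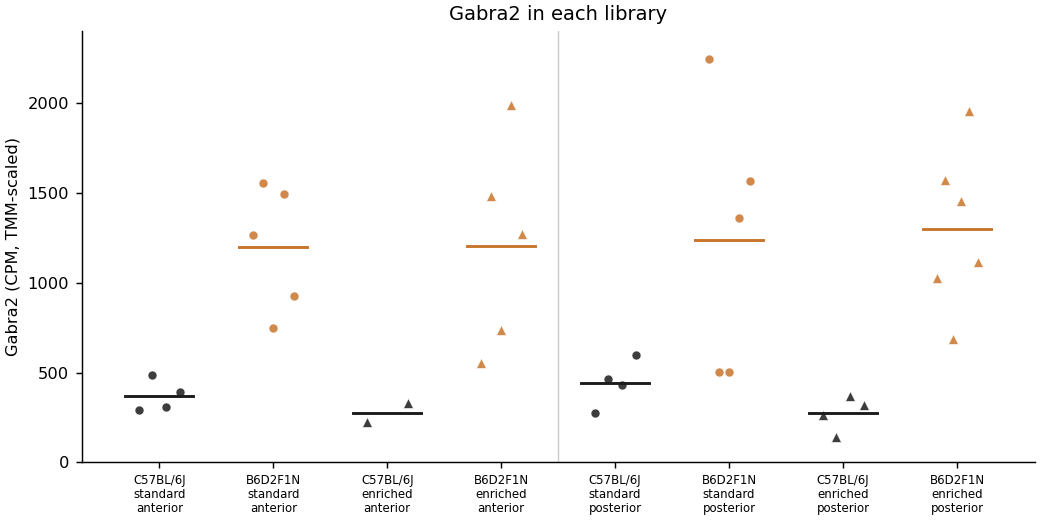
Gabra2 CPM (TMM-scaled, linear axis from 0) in each of the 35 libraries, by strain, housing (circle standard, triangle enriched) and portion, with a bar at each group mean. The ranges of the strains meet in the standard posterior groups, where 2 B6D2F1N libraries at 502 and 505 CPM lie below the highest C57BL/6J library at 597.

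With both housings in a single fit and housing as a term, the strain difference of Gabra2 passed in each portion. In the anterior amygdala the 6 C57BL/6J mice had 222 to 486 CPM (median 320) and the 10 B6D2F1N mice had 555 to 1989 (median 1268). The log2 fold change was 1.87 ± 0.26, a 3.65-fold difference (adjusted p = 0.000192, edgeR), and 1 of 7 members passed beside 0.615% of all genes. In the posterior amygdala the 8 C57BL/6J mice had 144 to 597 CPM (median 345) and the 11 B6D2F1N mice had 502 to 2248 (median 1361). Here the log2 fold change was 1.88 ± 0.30, a 3.68-fold difference (adjusted p = 0.000392), and 1 of 7 members passed beside 0.858% of all genes. Without B6D2F1N standard mouse 1 the log2 fold changes were 1.87 and 1.74, with adjusted p of 0.000537 and 0.0014.

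The strain difference of Gabra2 was not shown to depend on housing or portion. The difference of the strain effects between housings was 0.43 ± 0.49 on the log2 scale for anterior libraries and 0.77 ± 0.54 for posterior ones (adjusted p = 1 and 0.766, edgeR). Over the mice with both portions, the strain by portion term was -0.27 ± 0.28 (adjusted p = 1).

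No other member passed between strains by edgeR. Among the α genes, Gabra5, whose receptors lie largely outside synapses, came closest, with a log2 fold change of -0.75 ± 0.20 in the posterior amygdala over both housings (adjusted p = 0.0953). The 8 C57BL/6J mice had 93.9 to 254 CPM of Gabra5 (median 134) and the 11 B6D2F1N mice had 52.2 to 128 (median 102), so that the ranges overlapped. Gabra5 was called in this comparison by DESeq2, and by edgeR when B6D2F1N enriched mouse 2 was left out. In the enriched anterior amygdala the log2 fold change of Gabra5 was 0.60 ± 0.40, opposite in sign and also not past the threshold.

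Gabra3 and Gabra4 had strain differences of at most 0.16 on the log2 scale, in either direction, over both housings. For Gabra3 these were 0.01 ± 0.29 (anterior) and 0.06 ± 0.29 (posterior), and for Gabra4 they were -0.16 ± 0.21 and -0.09 ± 0.18. Among the β genes, Gabrb1 had 0.24 ± 0.21 and 0.04 ± 0.19, and Gabrb2 had -0.09 ± 0.24 and -0.17 ± 0.22. For the γ gene Gabrg1 the values were -0.00 ± 0.18 and 0.09 ± 0.26. None of these passed, and the adjusted p were 0.881 or above (edgeR).

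**Figure D3:**
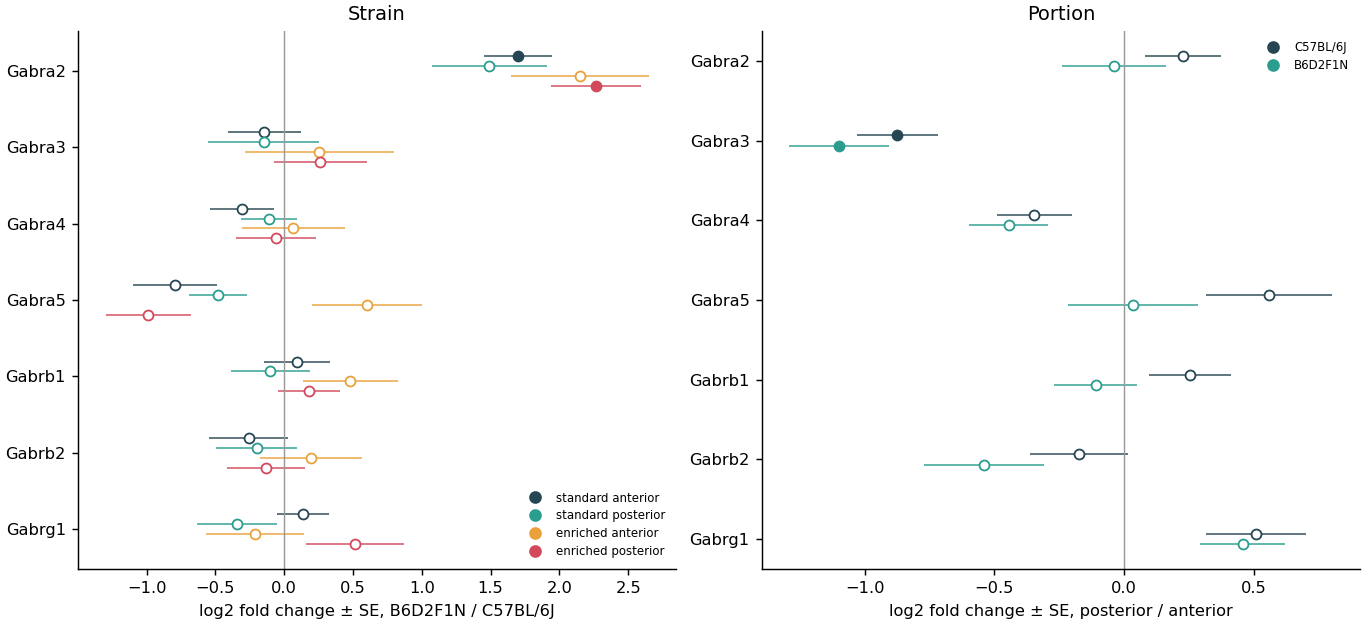
Log2 fold change (points) and SE (bars) of the 7 subunit genes between strains in the 4 housing and portion groups (left) and between portions within each strain (right). Filled points have an adjusted p of at most 0.05 (edgeR): Gabra2 in 2 of the 4 strain comparisons, and Gabra3 in both portion comparisons.

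To compare Gabra2 with its neighbours on chromosome 5 within a library, its CPM was divided by those of Gabrg1, Gabra4 and Gabrb1. Gabra2 and Gabrb1 had nearly equal CPM in the 6 anterior libraries of C57BL/6J mice, with a ratio of 0.891 to 0.988, whereas the 10 B6D2F1N libraries had 1.93 to 4.19. In the posterior libraries the ratio ran from 0.735 to 1.07 in the 8 C57BL/6J mice and from 1.54 to 4.12 in the 11 B6D2F1N mice. The strains did not overlap in either portion, and this included mice 2 and 3 of the standard posterior B6D2F1N group.

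The ratio to Gabra4 was 0.414 to 0.578 in C57BL/6J and 1.52 to 2.51 in B6D2F1N anterior libraries. In posterior libraries it was 0.418 to 0.989 and 1.14 to 4.23. The ratio to Gabrg1 was 1.83 to 3.67 in C57BL/6J and 5.92 to 11.8 in B6D2F1N anterior libraries, and 1.5 to 3.38 and 4.51 to 8.49 in posterior libraries. Here too the strains did not overlap.

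Against the mean log2 CPM of the 3 neighbours, Gabra2 was 3.64-fold higher in B6D2F1N in the anterior amygdala (exact two-sided permutation of strain labels within housing, p = 0.000378, adjusted p = 0.000378 over 8 tests). In the posterior amygdala the difference was 3.45-fold (exact permutation, p = 3.78e-05, adjusted p = 7.56e-05). Both p are the smallest that these designs allow, with 2646 and 26460 arrangements of the labels. Leaving out any mouse in turn kept the log2 differences between 1.81 and 1.92 for anterior and between 1.73 and 1.87 for posterior libraries.

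**Figure D4:**
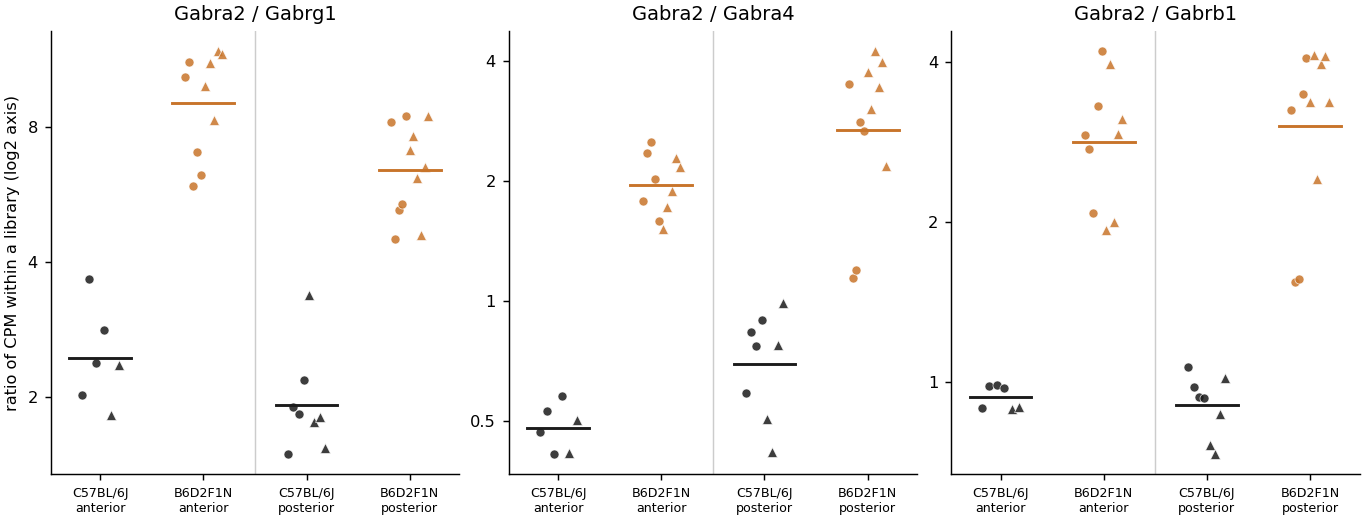
Ratio of Gabra2 CPM to that of Gabrg1, Gabra4 and Gabrb1 within each library (log2 axis), by strain and portion, with circles for standard and triangles for enriched housing and a bar at each geometric mean. In all 3 panels the B6D2F1N libraries lie above the C57BL/6J libraries in both portions.

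Around Gabra2, 60 other genes of the annotation, 20 of them protein-coding and 3 of them the neighbours above, start within 2 Mb on either side. Between 24 and 33 of those that are not members could be tested in a strain comparison, and 0 passed by edgeR or by DESeq2 in any of the 6, by adjusted p. At an unadjusted p below 0.05 (edgeR) there were 9 of 28 in the standard anterior comparison, or 32.1%, beside 9.0% of all genes. By DESeq2 there were 4 of the same 28, or 14.3%, with no share of all genes by DESeq2 to set beside it. In each of the other 5 comparisons there were 0 to 3 by edgeR, where 4.33 to 11.0% of all genes were. The Gabra2 promoter window, from 250 bases before to 50 after the start, is shown because the strain difference concerns the level of this gene (RefSeq, GRCm38.p6, chr5:71095800-71096099, minus strand), with GC boxes (GGGCGG, either strand) in capitals.
Gabra2 promoter: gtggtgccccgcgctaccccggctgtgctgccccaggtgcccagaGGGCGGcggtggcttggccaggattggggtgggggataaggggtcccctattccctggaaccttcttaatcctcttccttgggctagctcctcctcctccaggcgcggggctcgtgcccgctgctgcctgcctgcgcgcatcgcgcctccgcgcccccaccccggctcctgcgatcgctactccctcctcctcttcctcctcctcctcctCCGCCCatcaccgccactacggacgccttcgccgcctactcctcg
The window holds 25 CG dinucleotides, where the median over 32851 promoter windows was 7, and 2 GC boxes, a motif found in 35.7% of windows. It holds no TATA box (TATAAA, either strand; 13.6% of windows). Among the neighbours, the window of Gabrg1 holds 3 CG dinucleotides and no GC box, that of Gabra4 holds 12 and 2, and the 2 windows of Gabrb1 hold 25 and 9 and no GC box. This is the reference sequence and does not show how the strains differ.

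Gabra3, the α subunit of many receptors of the forebrain and of modulatory nuclei, was lower in the posterior than in the anterior amygdala of both strains. In the 6 paired C57BL/6J mice the anterior libraries had 796, 1191, 803 and 944 CPM in standard housing and 531 and 776 in enriched housing. The posterior libraries of the same mice had 398, 428, 439 and 664 CPM in standard housing and 404 and 387 in enriched housing. All 6 mice had less in the posterior portion. The log2 fold change (posterior over anterior) was -0.87 ± 0.16 (adjusted p = 0.00269, edgeR with the mouse as a block), and 1 of 7 members passed beside 3.64% of all genes.

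In the 10 paired B6D2F1N mice, Gabra3 had 251 to 1563 CPM in anterior libraries (mean 805 ± 403, SD) and 159 to 693 in posterior ones (mean 379 ± 201). All 10 mice had less in the posterior portion, and the smallest drop was from 723 to 693 CPM in standard mouse 5. The log2 fold change was -1.10 ± 0.19 (adjusted p = 0.00238), and 1 of 7 members passed beside 4% of all genes. Gabra3 is X-linked, and without B6D2F1N standard mouse 1 its log2 fold change was -1.13 (adjusted p = 0.00506). The portion difference was not shown to differ between strains (-0.23 ± 0.28, adjusted p = 1).

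**Figure D5:**
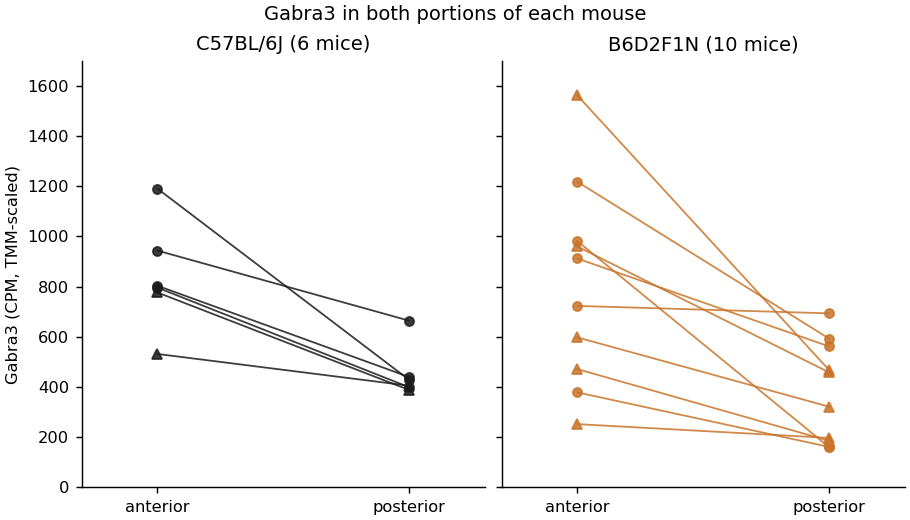
Gabra3 CPM (TMM-scaled, linear axis from 0) in the anterior and posterior library of each of the 6 C57BL/6J and 10 B6D2F1N mice with both, joined by a line, with circles for standard and triangles for enriched housing. All 16 lines fall from anterior to posterior.

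The other 6 members did not pass between portions in either strain. Gabra4, found largely in receptors outside synapses, had a log2 fold change of -0.35 ± 0.14 in C57BL/6J and -0.44 ± 0.15 in B6D2F1N mice, and was lower in the posterior portion in 6 of 6 and 8 of 10 mice (adjusted p = 0.268 and 0.13). Gabrg1 had 0.51 ± 0.19 and 0.46 ± 0.16, and was higher in 5 of 6 and 8 of 10 mice (adjusted p = 0.209 and 0.146). Gabra2 had 0.23 ± 0.15 and -0.04 ± 0.20, with 4 of 6 and 4 of 10 mice higher in the posterior portion. For Gabra5 the values were 0.56 ± 0.24 and 0.03 ± 0.25, for Gabrb1 they were 0.25 ± 0.16 and -0.11 ± 0.16, and for Gabrb2 they were -0.17 ± 0.19 and -0.54 ± 0.23. Gabrg1 passed in C57BL/6J mice when enriched mouse 1 was left out. In B6D2F1N mice Gabrg1 and Gabra4 passed without standard mouse 3, and Gabrb2 passed without standard mouse 5. The share of all genes past the threshold in these refits is not given, so these calls are not read as results about the members.

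Of 34 other genes of GABA signalling, 1 rose and 1 fell in the posterior portion of C57BL/6J mice, and 3 rose and 4 fell in B6D2F1N mice (edgeR). These are 5.88% and 20.6% of the list, beside 3.64% and 4% of all genes. The list and all genes were not matched for level, and the part of level in these shares was not tested. Hap1, a partner of huntingtin in the trafficking of GABA-A receptors, rose in both strains, by 1.69 ± 0.17 and 1.43 ± 0.29 on the log2 scale (adjusted p = 8.07e-06 and 0.00737). Gabbr2, a subunit of the metabotropic GABA-B receptor, had log2 fold changes of -0.74 ± 0.16 and -0.74 ± 0.20 (adjusted p = 0.01 and 0.0458). In B6D2F1N mice Nsf, which also acts in vesicle fusion, fell, with a log2 fold change of -0.57 ± 0.13 (adjusted p = 0.0162), and Dbi, whose product binds the benzodiazepine site, rose by 0.71 ± 0.17 (adjusted p = 0.0243). The median log2 fold change of the list was -0.20 and -0.11, where that of all genes was 0.01 and 0.15.

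Markers of other cells were summed in each portion. The summed CPM of 6 excitatory neuron markers ran from 2254 to 4459 in anterior and from 1027 to 5395 in posterior C57BL/6J libraries, and from 1819 to 4331 and 927 to 2899 in those of B6D2F1N mice. The 6 choroid plexus markers summed to 8.23 to 27.5 CPM in anterior and 117 to 1473 in posterior C57BL/6J libraries, and to 6.51 to 928 and 348 to 14220 in B6D2F1N libraries. All 6 markers of each list were above 0 in some library of each strain and portion, and the part of these cells in the portion differences was not tested.

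No member passed between housings. Housing was partly tied to the optimist and pessimist labels, and their parts cannot be told apart here. Of the 7 members, 0 passed by edgeR or DESeq2 in any of the 4 comparisons of enriched with standard housing. By edgeR 0% of all genes passed in 3 of these and 0.0163% in the posterior amygdala of C57BL/6J mice. No share of all genes is given for DESeq2. Of the 34 other GABA genes, DESeq2 called 1 in anterior and 2 in posterior C57BL/6J libraries, and 0 in either B6D2F1N portion. In posterior C57BL/6J libraries the unadjusted p was below 0.05 for 4 members by edgeR, or 57.1%, beside 10.3% of all genes by edgeR. By DESeq2 it was below 0.05 for 5. It was below 0.05 for 1 in each B6D2F1N portion by both tools, beside 6.3% and 6.59% of all genes by edgeR. In anterior C57BL/6J libraries it was so for 0 by edgeR, beside 6.2% of all genes, and for 1 by DESeq2. Without B6D2F1N standard mouse 1, 0 members passed in either B6D2F1N portion. In the posterior amygdala of C57BL/6J mice all 7 log2 fold changes (enriched over standard) were negative, with a median of -0.66 beside 0.02 for all genes. Gabrb2 had -0.80 ± 0.30 and Gabra2 had -0.69 ± 0.29 (adjusted p = 0.437 and 0.479). In the same 8 libraries the 6 oligodendrocyte markers summed to 8009 to 12536 CPM in standard and 17825 to 27905 in enriched housing, and their part was not tested. Between anterior C57BL/6J libraries all 7 log2 fold changes were also negative, with a median of -0.33 and 2 mice in enriched housing. In B6D2F1N mice 4 of 7 were positive for anterior and 2 of 7 for posterior libraries.

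Of the 12 other subunit genes, 9 or 10 could be tested in each strain comparison. By edgeR 1 of 10 passed in the enriched posterior comparison, beside 0.394% of all genes, and 0 in the others. Gabrr2, a ρ subunit best known from the retina, was lower in B6D2F1N mice in the enriched posterior amygdala, with 11 ± 3.99 CPM in C57BL/6J (SD, n = 4) and 2.06 ± 1.13 in B6D2F1N mice (n = 6; log2 fold change -2.42 ± 0.46, adjusted p = 0.0264). No gene of the 34 others passed between strains by edgeR. In each comparison 1 to 3 had an unadjusted p below 0.05 (2.94 to 8.82% of the list, beside 4.33 to 11.0% of all genes). DESeq2 called 1, Srd5a1, in the posterior amygdala over both housings.

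The genes whose log2 CPM followed that of Gabra2 most closely over the 8 group means were Tmem181c-ps, Hdhd3, Tcea1-ps1, Tma7-ps and Gm9825, with Pearson's r of 0.984 to 0.991 among 16021 genes with a mean of at least 1 CPM. None lies on chromosome 5, and 4 of the 5 are annotated as pseudogenes. All 5 had a higher mean in B6D2F1N mice, for example 19 ± 7.85 against 1.28 ± 0.445 CPM for Tmem181c-ps (SD, n = 21 and 14). Such a strain difference follows largely from choosing genes that follow Gabra2. Of the members, Gabrb1 had an r of 0.55 and Gabra5 of -0.45 with Gabra2, and the other 4 lay between. The 8 means are not independent, since both portions of a mouse enter them, and these r are a description.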

How the data were processed

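Laser-captured amygdala cells gave polyA RNA, a low-input kit was used, and single reads of 72 bases were sequenced. Per the submitters' processing notes, the authors used FastQC 0.11.7 for quality control, Trimmomatic 0.38 for trimming, HISAT2 2.1.0 for alignment to GRCm38, SAMtools 1.8 for sorting and HTSeq 0.11.2 for counting. The deposited values are raw read counts per gene. Reads outside genes (13.7% to 26.4%), ambiguous reads (3.06% to 3.74%) and multiple alignments (6.23% to 10.9%) were left out. These are shares of all reads in the count files, those in genes and those in the other classes together. GENCODE M21 gave symbols for 52489 of 52636 gene IDs. The reads carry no molecular identifiers.

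Genes with at least 10 counts over the libraries of a fit were tested by edgeR 4.0.16 (R 4.3.3, TMM, quasi-likelihood F test, Benjamini-Hochberg over all genes, threshold 0.05). The fits of some of the comparisons were also run on counts simulated without mouse effects, and no result here rests on them. Mice, named in the labels, pair the portions and entered as a block. The log2 CPM carried a prior count of 2. Alternatives were DESeq2 1.42.0, other size factors and filters, other sets of libraries, no block, and leaving out each mouse. The members and lists were chosen with earlier results of these data known. Named genes were the members, other GABA genes past the threshold (at most 3 per comparison by p outside the subunits) and the 5 genes most like Gabra2. Replicates are mice. Some subunit genes are not reported here.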

Additional observations from a re-analysis of the deposited data

Results flagged for a closer look

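A sample far from the others of its group was looked for in each of the 7 genes in every group of 4 to 6 libraries, 49 groups in all, by comparing its gap to the nearest sample with the range of the group. Chance flags about 1 in 20 groups, and 4 were found. Gabra3 in C57BL/6J standard posterior mouse 4 was the highest of 4 at 663.76 CPM, and the next was 438.88. Gabra5 in C57BL/6J standard anterior mouse 2 was the highest of 4 at 210.69 CPM, and the next was 96.687. Gabrb1 in B6D2F1N standard posterior mouse 1 was the highest of 5 at 691.01 CPM, and the next was 390.05. Gabrg1 in B6D2F1N standard anterior mouse 4 was the highest of 5 at 212.28 CPM, and the next was 147.77. No Gabra2 value was among them.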

How the results depend on the processing

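Of 539 values recomputed under an alternative for 31 results, 524 kept their direction and their side of the threshold (for counts, stayed within 1.5 times), and 0 reversed. DESeq2 called 1 member in the standard posterior strain comparison (Gabra2, log2 fold change 1.49), 1 in the enriched anterior comparison (2.16) and 2 in the posterior amygdala over both housings. In the enriched anterior comparison, no filter gave 1 member (Gabra2, 2.15, adjusted p = 0.015) and a single fit of the 4 groups gave 1 (2.13, adjusted p = 0.0416). With only mice with both portions, the enriched posterior comparison gave 0 members (Gabra2, 1.92). The causes were not tested.

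Leaving out each mouse gave 1 member in the standard anterior, enriched posterior and both-housings anterior strain comparisons, 0 in the standard posterior and enriched anterior ones, and 0 in the housing comparisons and interactions. It gave 1 to 2 in the posterior amygdala over both housings (2, with Gabra5, without B6D2F1N enriched mouse 2). Between portions it gave 1 to 2 in C57BL/6J (2, with Gabrg1, without enriched mouse 1). In B6D2F1N it gave 1 to 3 (3, with Gabrg1 and Gabra4, without standard mouse 3, and 2, with Gabrb2, without standard mouse 5). The shares of all genes past the threshold without each mouse are not given, so the added members are not read as results about them. The log2 fold change of Gabra2 ran from 1.59 to 1.86 (standard anterior), 1.16 to 1.69 (standard posterior), 1.87 to 2.42 (enriched anterior), 2.05 to 2.41 (enriched posterior), 1.76 to 1.98 and 1.74 to 2.00 (both housings, anterior and posterior). Without the replicate block, 1 member passed between portions in each strain, and pairing changed no call. A library total term, chosen after seeing the data, was run for the strain comparisons over both housings alone, where it changed neither the count of members nor the Gabra2 call in either portion. The members had 34.1 CPM or more in every library, and the part of depth in the other comparisons was not tested. Groups of 2 to 6 mice limit the precision.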
